A study of Mus musculus with 4 samples.

Results

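The expression of 10 Notch pathway genes was examined in mouse ovaries that overexpress Sall1, a zinc-finger transcription factor of the developing kidney. The genes comprise the receptors Notch1, Notch2 and Notch3, the ligands Jag1, Dll1 and Dll4, and the transcriptional targets Hes1, Hey1, Hey2 and Heyl. They were taken by symbol, without regard to their values, and all 10 were found among the 34682 gene symbols of the count table. None of them reached an adjusted p under 0.05 between mutant and wild-type ovaries in edgeR's test across all genes, and the estimates with their intervals are given for each gene.

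RNA was sequenced from whole ovaries at E13.5 (embryonic day), in 4 libraries, of which 2 came from Sall1 mutants and 2 from wild-type embryos. The mutants carry a bacterial artificial chromosome (BAC) in which the coding sequence of Sall1 stands under the regulatory elements of Wt1, a gene active in the somatic cells of the gonad. The construct was integrated into female embryonic stem cells, of which clones were picked, and mice were derived from these by morula aggregation; how many clones or embryos contributed to the libraries is not given in the sources used here. The labels give the wild-type ovaries no further treatment. Both mutant column names hold the tag N2, whose meaning is not given. For the stem cells of the mutants, the study names a B6 or B6 hybrid background. For the female line its methods name B6 blastocysts. The study's results describe littermate controls, its methods name wild-type CD1 gonads, while B6 stands in the column names of the wild-type counts, so the genetic background of the controls is uncertain. If it differed from that of the mutants, strain and genotype cannot be told apart. Because nothing says that the libraries of a group came from separate embryos, the p-values measure the spread between these libraries, which may be technical.

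Notch signalling links neighbouring cells. A ligand of the Delta or Jagged family on the surface of a cell binds a Notch receptor on the next, the receptor is cut by an Adam protease and then by gamma-secretase, and its intracellular part enters the nucleus, where it binds Rbpj and coactivators of the Mastermind family. Genes of the Hes and Hey families, which encode basic helix-loop-helix repressors, are the best known targets. In the fetal gonad the pathway is known for the maintenance of interstitial progenitor cells and for the growth of blood vessels. Later in the ovary, Jagged ligands of the germ cells and Notch2 of the pregranulosa cells take part in follicle formation.

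Rbpj binds DNA at sites with the core GTGGGAA. The promoter of Hey2 is shown because Hey2 had the largest estimated difference of the 10 genes and because it held this core, here in capitals, on both strands. The stretch runs from 220 bases before the transcription start to 5 bases after it and lies at chr10:30842779-30843003 on the minus strand (RefSeq, GRCm38.p6).

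Hey2: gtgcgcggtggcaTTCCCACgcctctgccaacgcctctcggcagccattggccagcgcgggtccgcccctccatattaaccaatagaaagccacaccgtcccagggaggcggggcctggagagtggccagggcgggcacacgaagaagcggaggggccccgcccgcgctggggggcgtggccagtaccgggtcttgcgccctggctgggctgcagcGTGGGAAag

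The first match begins at position -207 as TTCCCAC, the reverse complement, and the second at position -4 as GTGGGAA, across the transcription start. In promoters of this length, from 250 bases before to 50 after the start, 6.38% of 32851 held at least 1 match on either strand and 0.256% held 2 or more. Since Hey2 was shown partly for holding this core, these shares are background and no test of Hey2. Promoters were found for 7 of the 10 genes, and Hey2 was the only gene among these 7 with a match. Hes1, Hey1 and Heyl had no entry. A match describes the letters in this window and was not tested for binding, and its absence says nothing about Rbpj at the other promoters.

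The construct was checked first. Sall1 had 113 and 96.0 CPM, which are counts scaled to the normalised library size, in the mutant libraries and 16.2 and 12.6 CPM in the wild-type libraries. This 7.23-fold higher level (95% interval from 5.55 to 9.43) passed the quasi-likelihood test of edgeR (adjusted p = 0.00823). Wt1 itself, the source of these regulatory elements, had 341 and 292 CPM in the mutant and 309.5 and 309.4 CPM in the wild-type libraries. Library totals lay between 11036313 and 17869840 counts, and both mutant libraries were shallower than both wild-type libraries. The detection floor was set at 3 counts, which corresponded to between 0.170 and 0.272 CPM.

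Levels of different genes were compared after division by exon length, as CPM per kb. Notch2 had the highest level of the 10 genes, with a mean of 18.4 CPM per kb over the 4 libraries and a range from 16.6 to 20.0. Hes1 and Hey1 followed with means of 12.7 and 11.6 CPM per kb, and their ranges overlapped. Notch3 was next at 6.42, Heyl at 4.74 and Notch1 at 3.15 CPM per kb. With the length of all exons combined, the ranges of these 3 genes were apart from each other and from their neighbours. The ligands Dll1 and Jag1 had similar means of 2.53 and 2.35 CPM per kb with overlapping ranges. Hey2 and Dll4 were lowest, at 1.52 and 1.49 CPM per kb, and could not be ordered. The receptors and most targets were therefore measured above all 3 ligands of the set, with Hey2 as the exception. Exon lengths come from an annotation that may differ from that used for the counting.

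**Figure D1:**
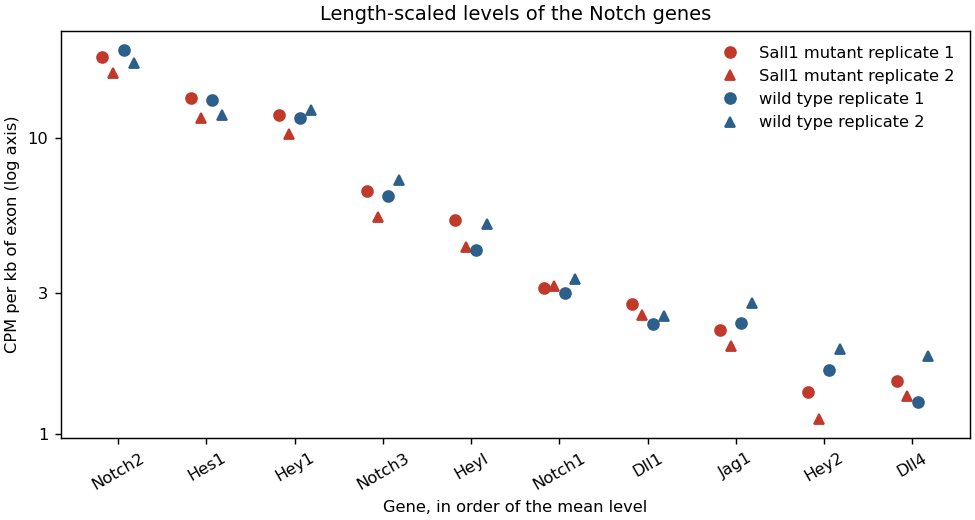
Length-scaled level of each gene in each library, in CPM per kb of exon on a log axis, with genes in order of their mean. Red symbols are the mutant and blue symbols the wild-type libraries, with circles for replicate 1 and triangles for replicate 2. Notch2 lies highest, between 16.6 and 20.0, and Hey2 and Dll4 lie lowest, between 1.12 and 1.93.

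Notch receptors are single-pass membrane proteins that act both as receptor and as transcriptional coactivator. Notch2 (chromosome 3, 97817461 to 97954290, plus strand, NCBIM37) had 198 and 175 CPM in the mutant libraries and 210 and 190 CPM in the wild-type libraries. The mutant values lay partly within the wild-type range. The ratio of mutant to wild type was 0.933 (95% interval from 0.785 to 1.11). Of the summed length-scaled level of the 3 receptors, Notch2 made up 65.9% and 66.0% in the mutant and 68.0% and 63.1% in the wild-type libraries, so the makeup of the receptor pool overlapped between the groups.

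Notch3 (chromosome 17, 32257765 to 32303825, minus strand), known from pericytes and smooth muscle around vessels, had 53.4 and 43.5 CPM in mutant and 51.4 and 58.2 CPM in wild-type ovaries. Mutant replicate 2 was the lowest library and the groups overlapped. The ratio was 0.882 (95% interval from 0.701 to 1.11). Notch1 (chromosome 2, 26313423 to 26372183, minus strand), a receptor of endothelial cells among others, was the steadiest of the 3, with 44.5 and 44.9 CPM in mutant and 42.5 and 47.5 CPM in wild-type ovaries. Both mutant values lay between those of the wild-type libraries. Its ratio was 0.993 (95% interval from 0.823 to 1.20), and larger changes in either direction lie outside this interval.

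Among the ligands, Jag1 and Dll1 were separated between the groups, in opposite directions. Jag1 (chromosome 2, 136907192 to 136942380, minus strand), a Jagged ligand, had 13.1 and 11.6 CPM in mutant and 13.8 and 16.2 CPM in wild-type ovaries. Both mutant libraries were below both wild-type libraries, although the nearest values differed by less than 1 CPM. The ratio was 0.818 (95% interval from 0.616 to 1.09), with an unadjusted p of 0.139 from edgeR. Dll1 (chromosome 17, 15504318 to 15513836, minus strand), a Delta ligand, had 11.6 and 10.6 CPM in mutant and 9.94 and 10.5 CPM in wild-type ovaries. Here both mutant libraries were above the wild-type libraries by a narrow margin, and the ratio was 1.09 (95% interval from 0.811 to 1.45). Dll4 (chromosome 2, 119151520 to 119161698, plus strand), the Delta ligand of arterial and sprouting endothelium, rested on 64 and 78 counts in the mutant and 85 and 125 counts in the wild-type libraries. These corresponded to 5.81 and 5.18 against 4.94 and 7.08 CPM. The wild-type libraries differed more from each other than the group means did, and the interval of the ratio, from 0.579 to 1.44, was wide.

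**Figure D2:**
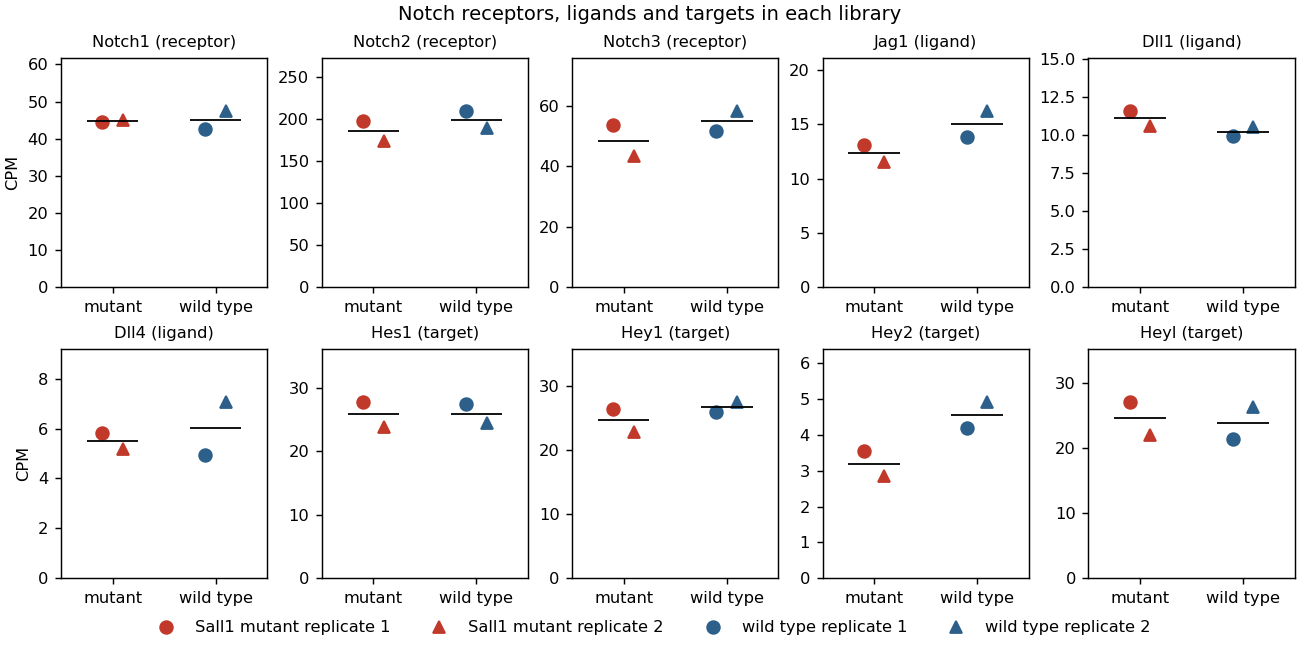
CPM of each of the 10 genes in each library, on linear axes that start at 0. Red symbols are mutant, blue wild-type, circles replicate 1 and triangles replicate 2, and the lines are the group means (n = 2). The groups are apart for Jag1 and Hey2, with lower mutant values, and for Dll1, with higher mutant values; in the other panels they overlap.

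The targets are read as the output of the pathway, although other signals also reach them. Hes1 (chromosome 16, 30064470 to 30067882, plus strand), a repressor that keeps progenitor cells undifferentiated, had 27.9 and 23.9 CPM in mutant and 27.4 and 24.4 CPM in wild-type ovaries. The means were 25.9 ± 2.82 CPM (SD, n = 2) and 25.9 ± 2.13 CPM (SD, n = 2), and the replicates differed by more than the groups did. The ratio of 0.996 had a 95% interval from 0.790 to 1.25. Hey1 (chromosome 3, 8663362 to 8667039, minus strand) had 26.4 and 22.7 CPM in mutant and 25.9 and 27.5 CPM in wild-type ovaries. The groups overlapped through mutant replicate 1, with a ratio of 0.919 (95% interval from 0.737 to 1.15). Heyl (chromosome 4, 122910799 to 122927118, plus strand), a Hey factor of vascular smooth muscle, had 27.1 and 22.0 CPM in mutant and 21.4 and 26.4 CPM in wild-type ovaries. Its highest and its lowest library belonged to different groups and the groups overlapped, with a ratio of 1.03 (95% interval from 0.779 to 1.35).

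Hey2 (chromosome 10, 30552165 to 30562607, minus strand), known from arterial endothelium and the heart, showed the largest estimated difference of the 10 genes. It had 39 and 43 counts in the mutant and 72 and 87 counts in the wild-type libraries, or 3.54 and 2.86 against 4.18 and 4.93 CPM. Both mutant libraries were the lower ones. The ratio was 0.699 (95% interval from 0.431 to 1.13), with an unadjusted p of 0.123 and an adjusted p of 1.00 from edgeR. The exact Poisson interval, which covers counting error only, ran from 2.52 to 4.84 CPM in mutant replicate 1 and from 2.07 to 3.85 CPM in mutant replicate 2. In wild-type replicate 1 it ran from 3.27 to 5.27 CPM and in wild-type replicate 2 from 3.95 to 6.08 CPM. Only the intervals of mutant replicate 2 and wild-type replicate 2 were apart. Every other pair of a mutant and a wild-type library overlapped.

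**Figure D3:**
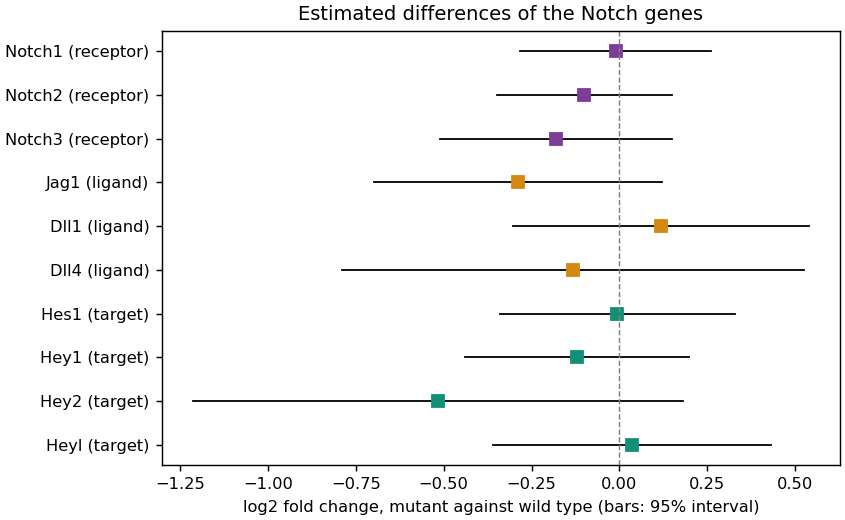
Estimated log2 fold change of each gene, mutant against wild type, with its 95% interval as a bar; squares are coloured by role (receptor, ligand or target). All 10 intervals include 0, and Hey2 has the lowest estimate, -0.52, with an interval from -1.21 to 0.18.

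Across the set, 0 of the 10 genes had an adjusted p under 0.05 in edgeR's quasi-likelihood test, where 9 of 15442 genes tested, or 0.0583%, passed. At an unadjusted p under 0.05 the count was also 0 of 10, against 878 of all genes tested, or 5.69%, and DESeq2 with default settings likewise called 0 of the 10. All 10 passed the filter on low counts. The adjusted p was 1.00 for each gene. The estimate was below 0 in 8 genes and above 0 in 2, and the median log2 fold change was -0.11, beside -0.00088 for all genes tested. Jag1 and Hey2 were the 2 genes with both mutant libraries lower, a pattern held by 15.1% of all genes tested, and Dll1 was the 1 gene with both mutant libraries higher, which held for 15.8% of them. For 1 gene, the smallest p that an exact permutation test over these 4 libraries allows is 0.333. The summed length-scaled level of the 4 targets was 32.4 and 27.5 CPM per kb in mutant and 31.0 and 31.6 CPM per kb in wild-type ovaries, so the summed target level overlapped between the groups.

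The remaining components of the pathway were followed with a list of 67 genes, of which 60 passed the filter. As in the set itself, 0 of these 60 had an adjusted p under 0.05 in edgeR's test, and 0 were called with DESeq2. At an unadjusted p under 0.05 there were 2 of 60, beside 5.69% of all genes tested. These were Tle2 and Id1, of which Id1 is named because its value was seen. The estimate was above 0 in 30 genes and below 0 in 30, with a median of -0.00054 on the log2 scale. Both mutant libraries were lower than the wild-type libraries in 7 genes and higher in 5, beside 15.1% and 15.8% of all genes tested, and the groups overlapped in 48.

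**Figure D4:**
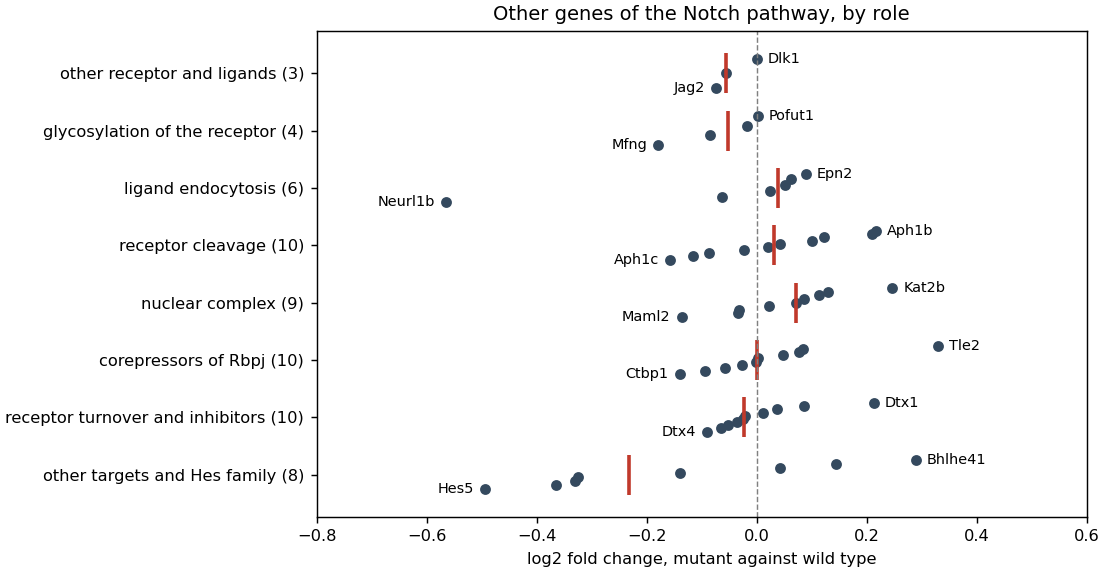
Estimated log2 fold change, mutant against wild type, of the 60 other pathway genes tested, grouped by role with the number of genes in brackets. Each point is a gene, red lines are group medians, and the lowest and highest gene of each role are named. The points lie on both sides of 0, from -0.57 for Neurl1b to 0.33 for Tle2.

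Among the other ligands, Jag2 was the most abundant Jagged or Delta gene after scaling for length, with 10.3 and 9.75 CPM per kb in mutant and 10.2 and 10.9 CPM per kb in wild-type ovaries. Its lowest library lay above every value of Jag1, Dll1 and Dll4. The log2 fold change of Jag2 was -0.07 (standard error 0.11). Dlk1, a non-canonical ligand of steroidogenic and stromal cells, had 198 and 133 CPM in mutant and 159 and 172 CPM in wild-type ovaries, a log2 fold change of 0.00058. Dll3, at 0.635 to 1.73 CPM, was close to the floor. Notch4, the fourth receptor and a gene of endothelial cells, was listed at 0 counts in all 4 libraries. In the annotation used here Notch4 overlaps Gm20462 on the opposite strand, with 0 shared exon bases. As the treatment of reads on overlapping genes is not given, the zeros set no upper limit and no level is given for Notch4. Markers of endothelial cells were well above the floor in the same libraries, with Pecam1 between 153 and 166 CPM, and the reason for the zeros of Notch4 was not tested.

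Enzymes that modify the receptor or promote uptake of the ligand were examined next. Pofut1, which adds fucose to Notch receptors, had a log2 fold change of 0.0021, and Mfng, a Fringe that extends this fucose, had -0.18. In the group that drives endocytosis of the ligands, Neurl1b had the lowest estimate of the 60 genes. It had 6.81 and 8.31 CPM in mutant and 8.78 and 13.7 CPM in wild-type ovaries. The mutant libraries were lower, but wild-type replicate 2 stood apart from the other 3, and the log2 fold change of -0.57 (standard error 0.27) did not pass the test. Epn2, an epsin, had the highest estimate of that group, 0.09.

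Of the 10 genes for cleavage of the receptor, 2 were higher and 2 lower in both mutant libraries, counts near the 15.8% and 15.1% of all genes tested. Estimates in this group ran from -0.16 for Aph1c to 0.22 for Aph1b, both subunits of gamma-secretase. In the nuclear complex, Rbpj had 165 and 171 CPM in mutant and 165 and 166 CPM in wild-type ovaries. For Rbpj the log2 fold change was 0.02 (standard error 0.09). Values for this complex ranged from -0.14 for Maml2, a Mastermind coactivator, to 0.25 for Kat2b, an acetyltransferase, and the groups overlapped in all 9 genes.

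Tle2, a Groucho corepressor that Hes proteins recruit, had 87.9 and 81.8 CPM in mutant and 66.4 and 68.6 CPM in wild-type ovaries. Both mutant libraries were higher, by a log2 fold change of 0.33 (standard error 0.10), with an unadjusted p of 0.0136 and an adjusted p of 0.602 in edgeR's test. Ctbp1 had the lowest estimate of the corepressors, -0.14. Factors of receptor turnover ranged from -0.09 for Dtx4 to 0.21 for Dtx1, both Deltex ubiquitin ligases, and overlapped between the groups in all 10 genes.

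The other Hes genes and further targets had a median log2 fold change of -0.23 over 8 genes tested, the lowest of the role groups. Hes5 was lowest at -0.49 but had at most 1.63 CPM in any library. Id1, an inhibitor of basic helix-loop-helix factors that is chiefly a target of BMP signalling, had 29.4 and 29.6 CPM in mutant and 38.4 and 35.8 CPM in wild-type ovaries. Both mutant libraries were lower, by -0.33 on the log2 scale (standard error 0.12). Bhlhe41 had the highest estimate, 0.29. Nrarp, a direct target and feedback inhibitor of Notch, was chosen after its values were seen. It had 10.1 and 7.31 CPM in mutant and 7.73 and 7.93 CPM in wild-type ovaries, and the groups overlapped. Hes2, Hes3 and Hes7 were at or near the floor and did not pass the filter.

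Because Notch genes mark several cell types, lists of cell type markers were read in the same libraries. Germ cell markers, with Ddx4 between 327 and 393 CPM, were present in every library, as were pre-granulosa markers, and the Sertoli marker Amh had 3 counts in each. Foxl2, the defining factor of pre-granulosa cells, had 46.3 and 44.1 CPM in mutant and 28.0 and 32.0 CPM in wild-type ovaries. Both mutant libraries were higher, with a ratio of 1.51, an unadjusted p of 0.00204 and an adjusted p of 0.301 from edgeR. The 8 pre-granulosa markers summed to 634 and 629 CPM in mutant and 588 and 611 CPM in wild-type ovaries. In both mutant libraries 4 of the 8 were higher and 1 was lower, beside 15.8% and 15.1% of all genes tested. In edgeR's test 3 had an unadjusted p under 0.05, beside 5.69% of all genes tested, and 0 passed after adjustment. Their log2 fold changes ran from -0.80 for Bmp2 to 0.63 for Irx5, with 6 above 0 and 2 below. The 16 endothelial markers summed to 648 and 616 CPM in mutant and 661 and 708 CPM in wild-type ovaries, while their defining members Pecam1 and Cdh5 had ratios of 1.01 and 1.02. The 10 markers of pericytes and smooth muscle summed to 284 and 253 CPM in mutant and 320 and 311 CPM in wild-type ovaries, and Pdgfrb, their receptor for PDGF, had a log2 fold change of -0.25 (standard error 0.10) and Rgs5 one of -0.17 (standard error 0.29). The 9 interstitial markers summed to 554 and 440 CPM in mutant and 656 and 626 CPM in wild-type ovaries. In these 3 lists, 10 of 16, 6 of 9 and 8 of 9 markers tested had estimates below 0, and 6, 3 and 1 above. Endothelial log2 fold changes ran from -0.46 for Kdr to 0.17 for Plvap. Those of pericytes and smooth muscle ran from -0.60 for Acta2 to 0.15 for Tagln. The interstitial ones ran from -1.10 for Tcf21 to 0.24 for Ptch1. Of these markers, 6 of 16, 3 of 9 and 7 of 9 were lower in both mutant libraries, beside 15.1% of all genes tested. In both mutant libraries 0, 0 and 1 were higher, beside 15.8%. At an adjusted p under 0.05 in edgeR's test 0 of them passed, and at an unadjusted p under 0.05 1 of 16, 3 of 9 and 5 of 9 did, beside 5.69% of all genes tested. The sums of these lists were lower in the mutant libraries as Jag1 and Hey2 were, and their part in the values of Jag1 and Hey2 was not tested. In whole ovaries, fewer cells of a type and less RNA per cell cannot be told apart.

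**Figure D5:**
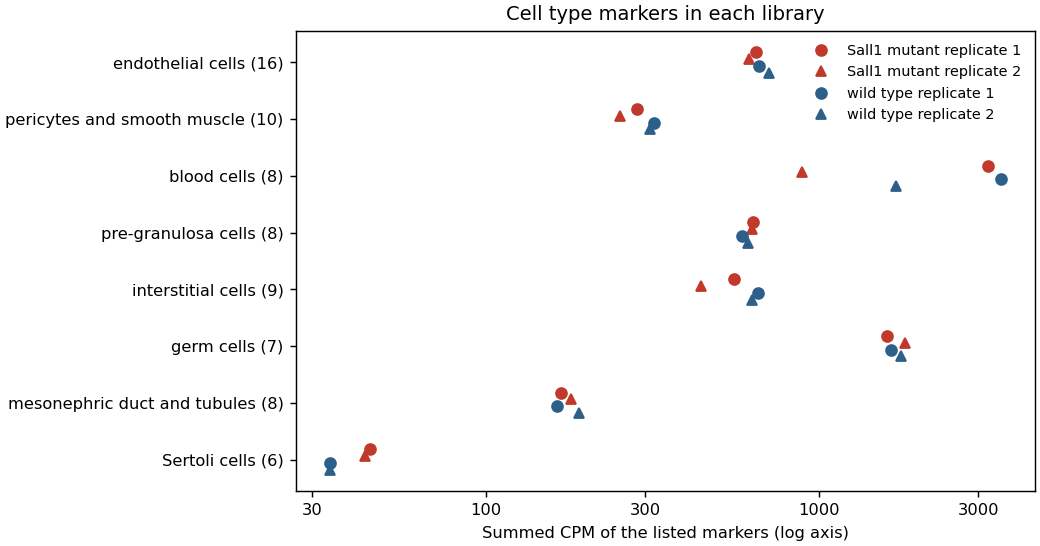
Summed CPM of each marker list in each library on a log axis, with the number of listed markers in brackets. Red symbols are mutant, blue wild-type, circles replicate 1 and triangles replicate 2. The sums for endothelial cells, pericytes and smooth muscle, and interstitial cells are lower in both mutant libraries, and blood cell markers spread most, from 889 to 3510 CPM.

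Blood cell markers separated the replicate numbers, with 3207 and 3510 CPM in the libraries numbered 1 and 889 and 1697 CPM in those numbered 2. Markers of the mesonephric duct and tubules, a tissue attached to the gonad, summed to between 164 and 190 CPM with overlap between the groups. Sertoli markers summed to 44.7 and 43.3 CPM in mutant and 34.1 and 34.0 CPM in wild-type ovaries. Of the 5 tested, 3 were higher and 1 was lower in both mutant libraries, beside 15.8% and 15.1% of all genes tested. Their log2 fold changes ran from -0.25 for Cldn11 to 1.75 for Ptgds. In edgeR's test 2 of the 5 had an unadjusted p under 0.05, beside 5.69% of all genes tested, and 0 passed after adjustment.

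The counts of 4 of the 10 genes are less certain because they share exon bases with a gene on the opposite strand in the annotation used here. Notch1 shares 1389 bases with 2 such genes, Dll1 867 bases with 1, Notch3 488 bases with 1 and Dll4 214 bases with 1. Of these neighbours, only Gm14207 beside Dll4 had an entry in the count table, with 0 and 3 counts in mutant and 6 and 7 in wild-type ovaries. The strand setting of the counting is not given in the sources used here. Poglut1, which adds glucose to Notch receptors, had 1 to 3 counts per library. Its older symbol Ktelc1 had an entry of its own, listed at 0 in every library, and no level is given for this gene.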

How the data were processed

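RNA was measured in 4 libraries of mouse ovaries at embryonic day 13.5, 2 per genotype. Reads were aligned with STAR 2.6.1d to mm9 per the submitters' processing notes. Reads per gene were counted by the authors with the R function summarizeOverlaps, and the deposited values are raw counts, neither normalised nor pooled; the annotation, the treatment of reads on overlapping genes and the strand setting are not given in the sources used here. Columns were assigned to libraries by the genotype and number in their names, which used all of them. Library totals were 11036313 to 17869840.

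In R 4.3.3, edgeR 4.0.16 was run on all genes with TMM normalization, filterByExpr (15442 of 34682 genes left), genotype as the only factor, the quasi-likelihood F-test and Benjamini-Hochberg adjustment at 0.05. Standard errors come from the fold change and F, and 95% intervals from the t distribution with the degrees of freedom of the fit. Libraries of a group differed by more than sampling noise (chi-square per degree of freedom 11.9 and 13.4). The fits were also run on simulated data. The settings and outcome of that run are not given here, so no conclusion about the Notch genes is drawn from it.

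Positions and exon lengths come from GENCODE M1 (NCBIM37, which is mm9), matched by symbol, and promoters from RefSeq on GRCm38.p6. The genes named are the 10 Notch genes, Sall1, Wt1, pathway genes that pass and otherwise the lowest and highest estimate per role, and Pecam1, Cdh5, Pdgfrb and Rgs5. Ddx4, Foxl2, Bmp2, Irx5, Amh, Cldn11, Ptgds, Rbpj, Dll3, Hes5, Nrarp, Id1, Notch4 and Poglut1 were named after their values were seen. The same holds for Kdr, Plvap, Acta2, Tagln, Tcf21, Ptch1, Ret and Cdh16. The genes and lists were chosen with earlier results of these data known. Alternatives were DESeq2 1.42.0, other normalizations, filters, the likelihood ratio test, a replicate block, a threshold of 0.1 and leaving out each library.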

Additional observations from a re-analysis of the deposited data

How the results depend on the processing

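Under each of 8 alternatives and with each of the 4 libraries left out, 0 of the 10 Notch genes and 0 of the other pathway genes tested were called; the smallest adjusted p of a Notch gene was 0.466, that of Notch3 without mutant replicate 1 (edgeR), where its unadjusted p was 0.0383 and its log2 fold change -0.34. The 9 genes called over the whole table became 105 with DESeq2, 28 with no filter, 19 with at least 10 counts in every library, 134 with the likelihood ratio test, 20 at an adjusted p under 0.1 130 without mutant replicate 1, 38 without mutant replicate 2, 7 without wild-type replicate 1 and 4 without wild-type replicate 2; the cause was not tested. RLE and upper-quartile normalization each gave 10. With a library left out, the lone library of its group is assumed to vary like the other group.

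With the replicate block, 385 genes were called, and 0 of the 10 Notch genes. At an unadjusted p under 0.05 in this edgeR fit there were 0 of the 10 Notch genes. There were 5 of the 60 other pathway genes, beside 1715 of 15442 genes tested. Same-numbered libraries deviated together with a correlation of 0.481 over 15442 genes. Their column names also carry neighbouring numbers after the letter L. The labels do not say what a number shares, and 2 pairs are too few to settle a pairing.

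None of the 10 estimates changed sign under the 8 alternatives, among which the threshold of 0.1 keeps the estimates of the main fit and could not change a sign. With a library left out, Heyl turned to -0.12 without mutant replicate 1 and -0.10 without wild-type replicate 1, Hes1 to 0.10 without mutant replicate 2 and 0.080 without wild-type replicate 1, and Notch1 and Dll4 to 0.082 and 0.16 without wild-type replicate 2. Over these 4 fits Heyl ranged from -0.12 to 0.20, Hes1 from -0.12 to 0.10, Notch1 from -0.086 to 0.082, Dll4 from -0.37 to 0.16, Hey2 from -0.67 to -0.37, Jag1 from -0.40 to -0.16, Dll1 from 0.05 to 0.18, Notch2 from -0.20 to -0.011, Notch3 from -0.34 to -0.038 and Hey1 from -0.23 to -0.016. With the length of the longest transcript, 8 of the 9 neighbouring pairs in the order of levels kept their order, and Hey2 and Dll4 changed places. The means were then 18.4 for Notch2 and 17.6 for Hes1, and 6.42, 5.34 and 4.73 CPM per kb for Notch3, Heyl and Notch1. With this length the ranges of Notch2 and Hes1 overlapped, as did those of Notch3 and Heyl and those of Heyl and Notch1. Depth limits Hey2 and Dll4 most, with 39 to 125 counts per library.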
